A study of Drosophila melanogaster with 2 samples.

Results

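The genes of the ecdysone receptor and of the regulators that answer it were examined for ChIP-seq peaks of a Dip2-eGFP fusion. They are 10 genes, EcR, usp, Eip74EF, Eip75B, Eip78C, br, Hr3, Hr4, Hr39 and ftz-f1, of 13968 protein-coding genes on the 7 chromosome arms. The list was put together after sites of high signal had been seen in EcR and Hr4, so the members were chosen by signal and position, and every count of theirs is a description without a test. A site was assigned to a gene where its summit, the position of highest signal, lay in the gene body or within 5 kb of it (dm6, Ensembl gene models). Chromatin came from whole embryos of the strain Dip2-GFP, collected at 0 to 18 h, which carry a transgene for the Dip2-eGFP fusion. It was sheared by sonication to 200 to 800 bp and precipitated with an antibody to GFP. There was 1 group of 2 biological replicates, with no other genotype, treatment or stage. The antibody field of the labels names Dip2 and the source field names an insertion targeting Dlip2, and the promoter that drives the fusion is not stated. Whole embryos mix all cell types, and the lists hold peaks and no transcript levels, so whether these genes were expressed in the same embryos was not measured.

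The steroid hormone ecdysone binds the nuclear receptor EcR, which acts as a dimer with Usp, the fly counterpart of the vertebrate retinoid X receptors. The hormone-bound dimer switches on early regulators, among them the zinc finger gene br, the ETS-domain gene Eip74EF and the nuclear receptor genes Eip75B and Eip78C. These and the later nuclear receptors Hr3, Hr4, Hr39 and ftz-f1 then pass the signal on in a timed cascade, which runs in the embryo as well as at moulting and metamorphosis.

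Sequences of 3 peaks are printed first, to show where the core of the CTCF motif lies in strong and weak sites. CTCF is a zinc finger protein of chromatin boundaries, and its core was searched on both strands as AGAGGGC or AGATGGC or AGGGGGC or AGGTGGC, printed in capitals on whichever strand it fell. The lines give the plus strand of dm6 from 5′ to 3′, 100 bp either side of the summit, taken from the RefSeq copy of the genome (201 bases each). The first site, in an Hr4 intron, held 3 cores, centred 52 bp and 13 bp before the summit (both on the minus strand) and 14 bp after it (plus strand). The second, in an Eip74EF intron, held 1 core on the plus strand, centred 12 bp after the summit. The last, a weaker site in another Hr4 intron, held none.
Hr4 intron, strongest site, chrX:1953035-1953235: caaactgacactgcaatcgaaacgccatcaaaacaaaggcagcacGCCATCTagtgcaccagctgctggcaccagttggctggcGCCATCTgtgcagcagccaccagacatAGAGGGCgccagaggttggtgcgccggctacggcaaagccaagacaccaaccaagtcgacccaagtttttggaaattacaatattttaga
Eip74EF intron, chr3L:17597014-17597214: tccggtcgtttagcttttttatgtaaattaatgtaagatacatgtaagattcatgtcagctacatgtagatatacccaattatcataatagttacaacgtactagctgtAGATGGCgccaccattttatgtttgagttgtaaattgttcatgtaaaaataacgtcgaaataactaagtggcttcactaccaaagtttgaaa
Hr4 intron, weaker site, chrX:1963798-1963998: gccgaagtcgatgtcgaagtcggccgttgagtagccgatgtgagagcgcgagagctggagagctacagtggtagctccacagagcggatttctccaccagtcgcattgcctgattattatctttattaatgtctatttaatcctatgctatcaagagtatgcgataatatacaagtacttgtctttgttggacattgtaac
The first 2 sites share the run AGATGGCGCCA, 11 bases long and the longest that any pair of the 6 summit windows had in common. It was also present, on either strand, in 40 of the 605 windows around other summits (6.61%). This run was looked for after the windows had been compared.

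The deposited data comprise 4 thresholded peak lists and, behind each, a ranked list of candidates. Replicate 1 had 550 thresholded peaks out of 104058 candidates and replicate 2 had 742 out of 111249. The conservative list, made from both replicates, had 629 peaks out of 129448 and is the main list here, and the optimal list had 973 out of 140235. On the 7 chromosome arms lay 468 peaks of replicate 1, 734 of replicate 2, 611 of the conservative and 910 of the optimal list. Counts of other summits, 605 in the conservative list, use the peaks on the arms, while ranks use the whole list. Every thresholded peak had a scaled IDR score of at least 830, which stands for an irreproducible discovery rate of 0.01, and scores stop at 1000. The median signal was 72.1 in replicate 1, 70.0 in replicate 2, 127 in the conservative and 96.7 in the optimal list. Signal is the authors' value and its scaling is not stated. It is read only within a list, or between the conservative and optimal lists, which gave the member peaks they share the same signal. The lists give no read counts, so the depth behind each value is unknown.

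Of the 10 genes, 4 held a thresholded summit in the conservative list: EcR, Hr4, Hr3 and Eip74EF. In all protein-coding genes the share was 10.5%. Windows of the members are long, so the share was also taken by window length. Among windows of 50 to 100 kb, 3 of 5 members (EcR, Hr4 and Eip74EF, but not ftz-f1 or br) held a summit, against 19.2% of all 355 genes of that length. Among windows of 20 to 50 kb it was 1 of 3 members (Hr3, but not Hr39 or Eip78C), against 15.2%. The only member under 20 kb, usp, held none (9.52% of all such genes), and neither did Eip75B, the only member of 100 kb and over (20.4%). The other lists gave the same 4 genes, except that replicate 1 lacked Hr3. The count was 3 of 10 in replicate 1 (8.07% of all protein-coding genes), 4 of 10 in replicate 2 (11.8%) and 4 of 10 in the optimal list (14.1%). Summits at the members numbered 5 in replicate 1, 6 in replicate 2, 6 in the conservative list and 8 in the optimal list. In the conservative list this was 0.907 summits per 100 kb of the members' windows (661 kb in all), against 0.515 in the windows of all protein-coding genes.

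**Figure D1:**
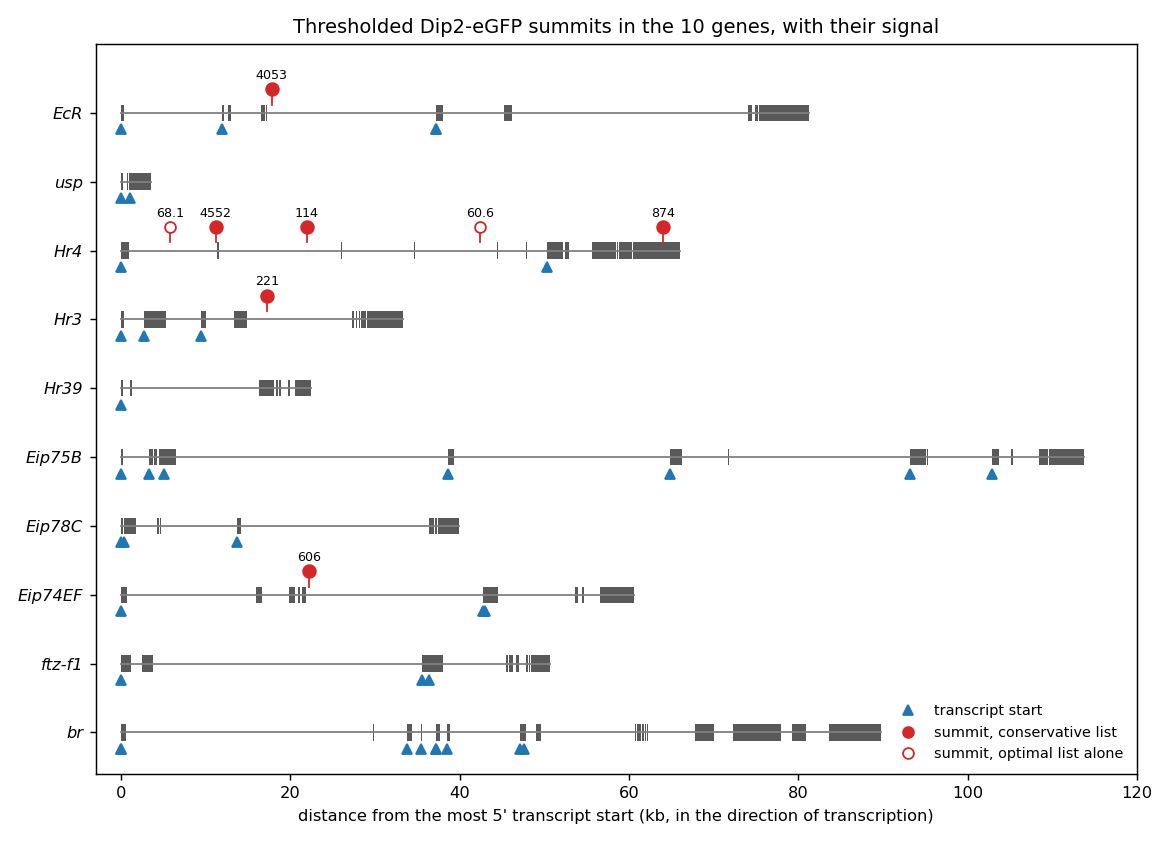
Maps of the 10 genes, drawn from the most 5′ transcript start in the direction of transcription, in kb. Grey boxes are exons, blue triangles are transcript starts, and red circles are thresholded summits with their signal above them, filled for the conservative list and open for sites found in the optimal list alone. Hr4 holds 5 of the 8 summits, and no summit sits at a transcript start.

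EcR, the hormone-binding subunit of the receptor, held 1 site, among the strongest of the data set. Its peak lay on chromosome arm 2R at 6150972 to 6151615, with the summit at 6151304. The signal was 1705 in replicate 1 (rank 6 of 550), 2336 in replicate 2 (rank 2 of 742) and 4053 in the conservative list (rank 4 of 629), with a score of 1000 in each. Both replicates thus put the site among their 6 strongest, with summits 19 bp apart. It lay 17.8 kb into the gene, in an intron of 56.8 kb that is spanned by 3 of the 6 EcR transcripts. Of the 4 distinct EcR starts, 2 lay upstream of the site, the nearer at 5.83 kb, and 2 lay downstream, the nearer at 19.4 kb. The closest start of any gene was that of tRNA:Asn-GTT-1-1, at 1372 bp. The summit window held 1 CTCF core, centred 45 bp from the summit.

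The gene for the receptor's partner, usp, had no thresholded summit in any list. It is the shortest member (3.51 kb, on X), and the end of the Hr4 gene lies 30.8 kb away. Its strongest conservative candidate, in a coding exon 735 bp downstream of a usp start, had a signal of 38.2 and a score of 168. In the replicates the strongest usp candidates had signals of 18.4 (replicate 1) and 16.9 (replicate 2), with scores of 17 and 19.

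Among the early regulators, Eip74EF, which encodes ETS-domain factors, was the only member with a thresholded site. Its peak lay on 3L at 17596983 to 17597259, with the summit at 17597114. The signal was 259 in replicate 1 (rank 106 of 550), 344 in replicate 2 (rank 121 of 742) and 606 in the conservative list (rank 114 of 629), each with a score of 1000. The replicate summits were 6 bp apart. The site lay in an intron of 31.7 kb that is spanned by 3 of 5 transcripts, nearly midway between starts, 22.2 kb from the start upstream and 20.5 kb from the next one downstream. Its CTCF core is the one printed above.

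Eip75B encodes a nuclear receptor that binds haem, and it is the longest member, with 7 starts in 114 kb. Its strongest conservative candidate lay at a promoter, 7 bp upstream of an Eip75B start, with a signal of 55.5. The score of this candidate was 495 in the conservative list and 764 in the optimal list, under the lowest thresholded score of 830. In replicate 2 the same place was also the gene's strongest candidate (signal 29.6, score 202), while in replicate 1 it was an intronic site (29.0, score 12). Eip78C, another nuclear receptor gene, had a strongest conservative candidate of 43.5 (score 206, intron). The strongest for br, whose BTB zinc finger isoforms arise by splicing, was 42.9 (score 313, intron). That br candidate lay 639 bp upstream of a start of Mur2B. All 3 signals were below 60.6, the lowest signal of a thresholded summit at the members in any pooled list.

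Hr4, a nuclear receptor described as a repressor of early genes, held 3 of the 6 conservative summits and 5 of the 8 optimal ones. At least 3 conservative summits were found in 1 of 10 members and in 0.15% of all protein-coding genes, that is 21 genes. That share was not matched for window length, and the Hr4 window is 76 kb. The strongest Hr4 site, at 1953135 on X, had a signal of 2314 in replicate 1 (rank 1 of 550), 2247 in replicate 2 (rank 5 of 742) and 4552 in the conservative list (rank 2 of 629). It is the first sequence printed above. It lay 11.2 kb into the gene, 146 bp from an exon and in an intron that 7 of 9 transcripts span, with the next Hr4 start 39.2 kb further downstream. The nearest start was that of the pseudogene CR46447, at 1345 bp. EcR and Hr4 were thus 2 of 10 members with a summit among the 25 strongest of the conservative list, against 0.344% of all protein-coding genes. This is the property by which they were noticed, and the share of all genes was not matched for window length.

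The second Hr4 site lay near the other end of the gene, 64.1 kb from its first start, at 2006012. It fell in the 3′ UTR of 1 of the 9 transcripts, and the nearest start, 3352 bp away, was that of the neighbouring gene PIG-K. The signal was 298 in replicate 1 (rank 100 of 550), 569.8 in replicate 2 (rank 92 of 742) and 874 in the conservative list (rank 98 of 629). Its window held a CTCF core centred 3 bp from the summit. The third site, at 1963898, is the weaker one printed above. It had a conservative signal of 114 (rank 356 of 629), below the list's median of 127. Replicate 1 had it among its thresholded peaks (signal 46.9, rank 439 of 550), while in replicate 2 it was a candidate with a signal of 64.7 and a score of 584. The last pair of Hr4 sites passed in the optimal list and not in the conservative one. The site at 1947749, 5.81 kb into the gene, had an optimal signal of 68.1 (score 834). It was thresholded in replicate 2 (49.7, score 1000) and had a score of 13 in replicate 1 (15.2). The site at 1984336 had an optimal signal of 60.6 (score 871) and was thresholded in neither replicate, with 26.3 (score 119) in replicate 1 and 39.3 (score 792) in replicate 2.

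Hr3, a nuclear receptor related to the vertebrate ROR receptors and needed for ftz-f1 expression, held 1 site, on 2R at 10219878 to 10220241. The conservative signal was 221 (rank 206 of 629) and the replicate 2 signal was 144 (rank 194 of 742), both with a score of 1000. In replicate 1 it was a candidate with a signal of 75.1 and a score of 12. That signal was above the median of replicate 1's thresholded peaks, 72.1, so the low score and the signal do not go together at this site. The site lay in an intron of all 6 Hr3 transcripts, 7.9 kb downstream of the nearest Hr3 start, and within the overlapping genes CG12912 and CG46321. No CTCF core lay within 100 bp.

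**Figure D2:**
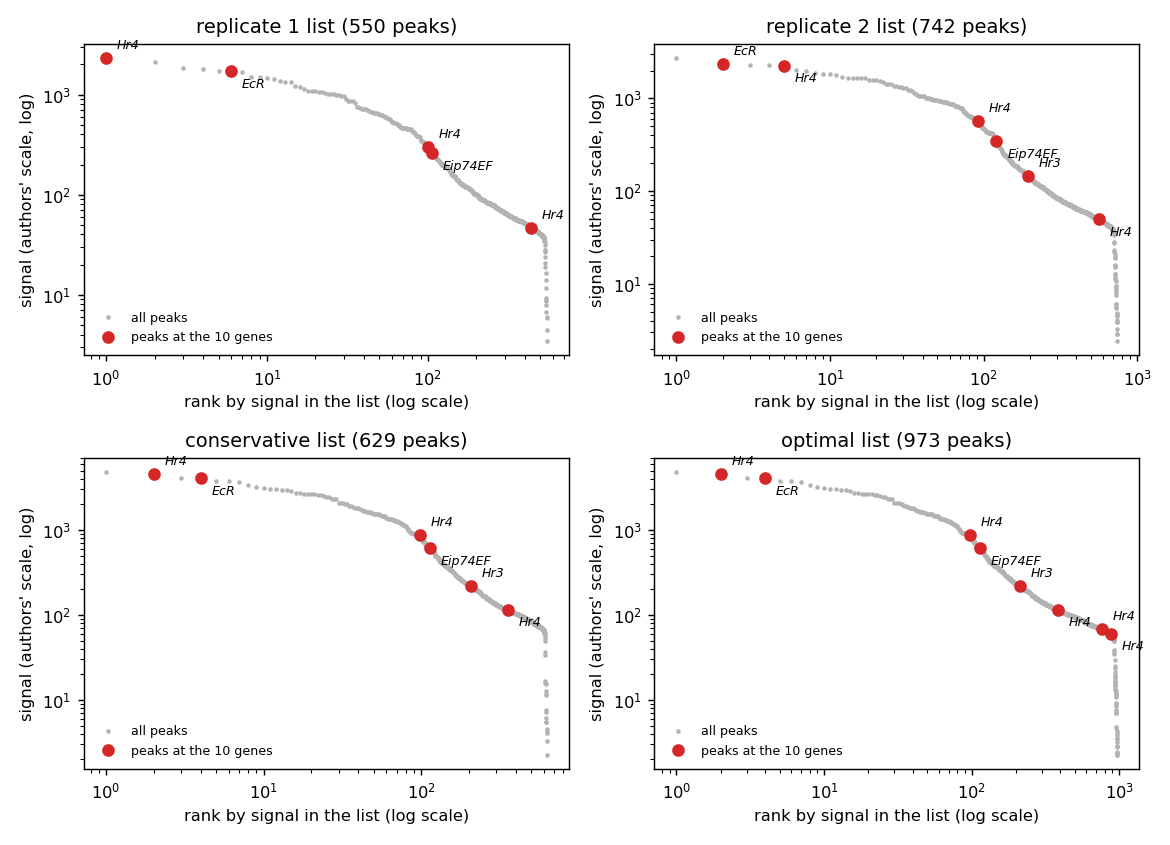
Signal against rank for every thresholded peak of the 4 lists, each list in its own panel, both axes on log scales. Grey points are all peaks and red points are peaks at the 10 genes. Hr4 and EcR lie in the flat top of every panel, the 3′ UTR site of Hr4 and the Eip74EF site share a place near rank 100, and Hr3 and the weaker Hr4 sites lie further down.

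Hr39 and ftz-f1, which encode related nuclear receptors, had no thresholded summit in any list. FTZ-F1 gives tissues the competence to answer a later hormone pulse and is also a partner of the segmentation protein Fushi tarazu. The windows of Hr39 and ftz-f1 held 0 candidates in replicate 1 and in the conservative list. This was so for 2 of 10 members, against 9.46% of all protein-coding genes in replicate 1 and 8.25% in the conservative list. The shares were not matched for window length. Most protein-coding genes had windows under 20 kb, against 32.4 kb for Hr39 and 60.7 kb for ftz-f1. In the optimal list Hr39 again held 0 candidates and ftz-f1 held 4. In replicate 2 Hr39 held 23 candidates and ftz-f1 held 46, so 0 of 10 members were without a candidate there, against 1.9% of all genes. In replicate 1 the stretch without any candidate was 98.5 kb around Hr39 and 133 kb around ftz-f1. Such stretches of over 50 kb made up 3.61% of the arms in replicate 1 and 1.9% in replicate 2, with chromosomes 4 and Y left out. The strongest Hr39 candidate of replicate 2 had a signal of 17.4 and a score of 5. The strongest of ftz-f1, in an intron at 18782312, had a signal of 38.3 and a score of 761, and in the optimal list 36.5 and a score of 53. For these 2 genes the replicates differ in whether anything was listed at all, and why was not tested.

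**Figure D3:**
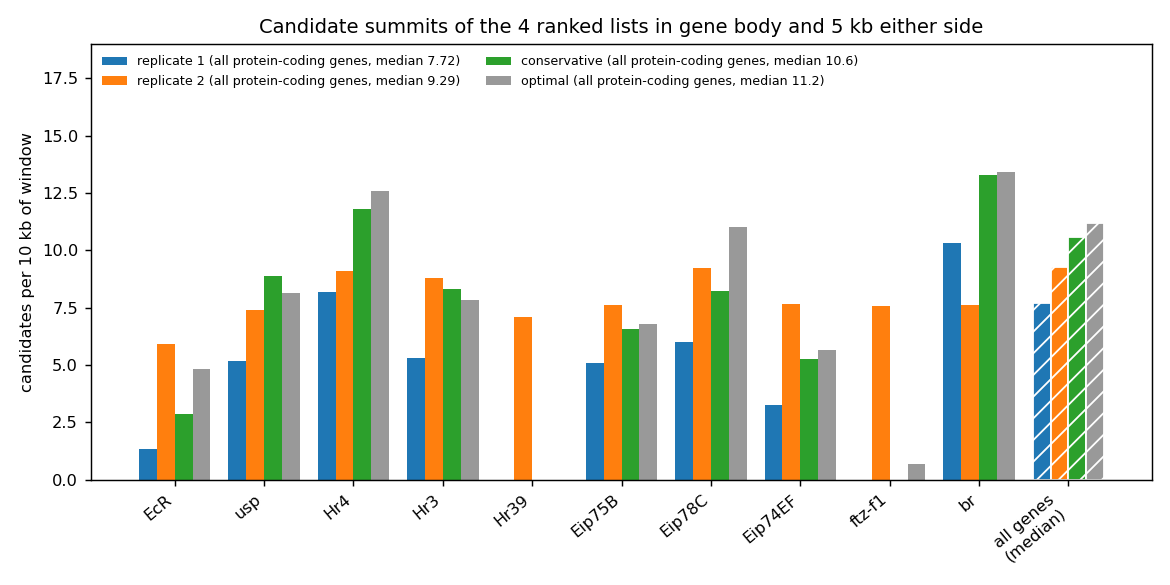
Candidate summits per 10 kb of window for each of the 10 genes, with a bar for each ranked list (blue replicate 1, orange replicate 2, green conservative, grey optimal) and hatched bars for the median of all 13968 protein-coding genes. Hr39 and ftz-f1 have no blue or green bar, and EcR has the lowest other blue bar, 1.32 per 10 kb.

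The median density of candidates was lower over the members than over all protein-coding genes in all 4 ranked lists. These medians were not matched for window length. Windows under 20 kb made up 11983 of the 13968 protein-coding genes but only 1 of the 10 members, usp. In replicate 1 and the conservative list the member medians also include the empty windows of Hr39 and ftz-f1. In the optimal list they include that of Hr39, and in replicate 2 no member window was empty. Whether the difference goes beyond window length was not tested. It was 5.14 per 10 kb in the members and 7.72 in all protein-coding genes in replicate 1, and 7.61 against 9.29 in replicate 2. The values were 7.38 against 10.6 in the conservative and 7.32 against 11.2 in the optimal list. EcR had 1.32 candidates per 10 kb in replicate 1 and 5.92 in replicate 2, and Eip74EF had 3.26 and 7.64. At the other end, br had 10.3 in replicate 1 and 7.62 in replicate 2. Of the genes with a strong site, Hr4 was above the median of all genes in replicate 1, the conservative and the optimal list, and EcR and Eip74EF were below it in all 4.

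Several strong sites stood at the edge of a stretch without candidates, a pattern looked for after the data had been seen. In the conservative list, 3 of 6 member summits had 10 kb or more to the next candidate on 1 side, against 9.75% of the other 605 thresholded summits. These were EcR (31.4 kb), Eip74EF (29.7 kb) and the strongest Hr4 site (10.1 kb). The 3′ UTR site of Hr4, stronger than the Eip74EF site, had candidates 0.79 and 1.06 kb away. These shares were not matched for location or for the density of candidates around a summit, which was low at EcR and Eip74EF. In replicate 1 it was 4 of 5 summits, against 13.4% of the others, with 31.8 kb at EcR, 32.8 kb at Eip74EF and 10.8 kb between the strongest and the weaker Hr4 site, which counts for both. In replicate 2 it was 2 of 6, against 1.1%. Eip74EF had 19.6 kb and Hr4 10.1 kb there, but the nearest candidates to the EcR summit were 1.07 and 0.957 kb away. The Eip74EF and Hr4 stretches were thus present in each replicate and the EcR stretch in replicate 1 alone.

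Both replicates had thresholded peaks at 4 of the 6 conservative sites: EcR, Eip74EF, the strongest Hr4 site and the 3′ UTR site of Hr4. The other 605 conservative summits were in both replicates at 61%, so the members' count is near that of the list as a whole. Of those with a signal of at least 606, that of the Eip74EF site, 110 of 110 were in both. The 4 member sites found in both are the members' strongest, and they are also the 4 with a CTCF core within 100 bp of the summit. Among other conservative summits 195 of 605 had the core (32.2%), and among other intronic ones 45 of 128 (35.2%). With each replicate's own peaks the count was 4 of 5 at the members in replicate 1, against 37.6% of the others, and 4 of 6 in replicate 2, against 27.5%. In the optimal list it was 4 of 8, against 25.5%. The sites were chosen with their signal known, so these shares are not independent of the choice.

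**Figure D4:**
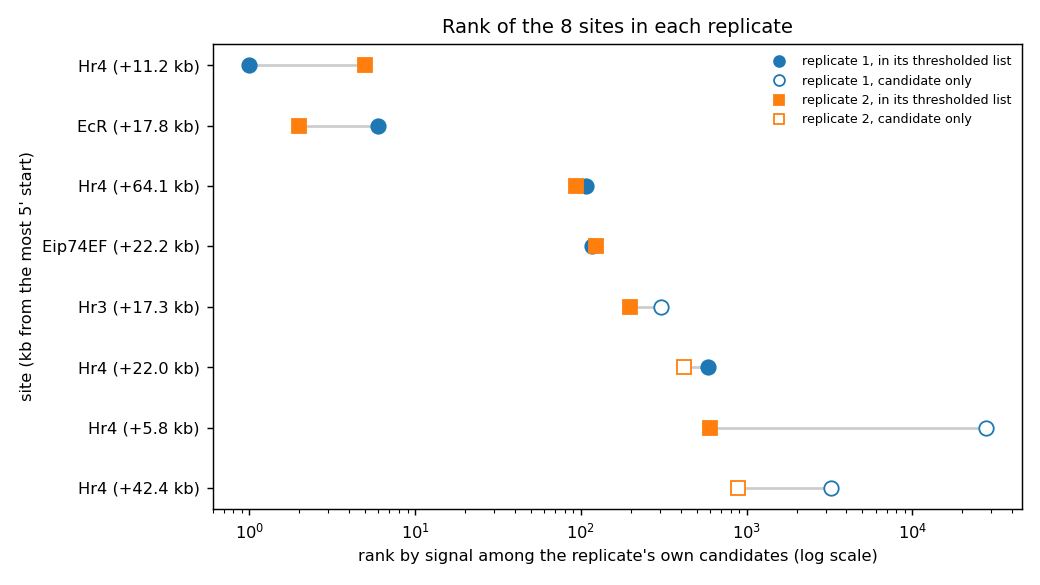
Rank by signal of the 8 pooled sites among all candidates of each replicate (log scale, blue circles replicate 1, orange squares replicate 2), filled where the site is in that replicate's thresholded list. The 4 top sites are filled in both replicates and the lower 4 in at most 1. The widest gap is at the Hr4 site 5.8 kb into the gene, with ranks of 27677 in replicate 1 and 598 in replicate 2.

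Motifs bound by factors of the pathway were counted in the same windows. The nuclear receptor element AGGTCA was in 0 of the 6 member windows and in 3.8% of the other 605. The longer form bound by FTZ-F1 and HR39, CAAGGTCA, which contains AGGTCA, was in 0 and in 0.331%. Both are so infrequent in the list that a count of 0 in 6 windows says nothing particular about the members. The ETS core CCGGAA was in 1 window, at the 3′ UTR site of Hr4, and in 3.31% of the others. The TATA box TATAAA was in 0 and in 37.4%. All were searched on both strands within 100 bp of the summit, and no match says only that these letters are absent from that window. Median GC content was 40.5% in the member windows (range 32.3% to 53.2%) and 36.3% in the others.

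By location, none of the 6 conservative summits of the members lay in a promoter (within 500 bp of a transcript start), against 315 of 605 other summits (52.1%). Of the 6, 5 were intronic, against 128 of 605 (21.2%). Among all 133 intronic summits of the list, the member sites ranked 2 (Hr4), 3 (EcR), 18 (Eip74EF), 41 (Hr3) and 72 (weaker Hr4 site) by signal. The median signal of the 6 summits was 739.8, against 128 for the other 605. Members were chosen with these signals and positions known, so neither the locations nor the signals are evidence about them. The location shares were also not matched for gene length, and the members are mostly long genes.

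The values just around the threshold were as follows. In the conservative list the lowest member inside it was the Hr4 site at 1963898, with an IDR of 0.00284. The first outside it was another Hr4 candidate at 1951945, with a score of 790 and an IDR of 0.0125. In replicate 2 the first outside was Hr4 at 1984289 (score 792), followed by ftz-f1 at 18782312 (score 761). In the optimal list it was the Eip75B promoter candidate (score 764).

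The pathway's other genes were taken from lists compiled with earlier results of these data known. Of 13 other nuclear receptor genes, 2 had a conservative summit, of 13 genes of ecdysone synthesis 0, of 4 genes of transport and turnover 1, of 4 receptor cofactor genes 0 and of 17 other ecdysone-induced genes 3. These shares are to be read against the 10.5% of all protein-coding genes. The strongest was at Hr51, a nuclear receptor gene, with a conservative signal of 269 (rank 176 of 629). That summit was intergenic and nearest to the start of unc-5. The summit in the window of ERR, the estrogen-related receptor gene, had 113 and lay 21 bp from a start of Atg18a. E23, which encodes a transporter that limits the ecdysone response, had 163 at its own promoter, 219 bp upstream of the start, and was thresholded in replicate 2 but not in replicate 1. Ldh, the lactate dehydrogenase gene, had 67.0 at 222 bp upstream of its start and 98.2 at the promoter of its neighbour Best2. ImpL2, which encodes a secreted insulin-binding protein, had 3 summits of 93.8, 77.2 and 2.26, the nearest starts being those of CG46460 and Sqor. The peaks of 93.8 and 2.26 overlap, and 2.26 is the lowest signal of the list. Neither Ldh nor ImpL2 had a thresholded summit in replicate 1, and the Ldh summit of 67.0 was thresholded in neither replicate. Cth, listed under its older name Eip55E, had 88.4 at 86 bp upstream of a start of Sec6. All of these were below the Eip74EF site, and all but Hr51 were below the Hr3 site.

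Outside the pathway, the genes whose sites were most like the strongest Hr4 site were found by rank in the 2 replicates. CG13306, Fhos (a formin gene) and Prm (the paramyosin gene) came first, with rank 3 in replicate 1 and rank 4 in replicate 2 for a summit that their windows share. EcR, with ranks 6 and 2, had a summed rank difference of 8 from Hr4, against 3 for those genes. The windows of members on the same chromosome do not overlap, so a site could not be shared between them. No conservative summit lay in the 332 kb between Eip74EF and Eip75B, in the 686 kb between Eip75B and ftz-f1 or in the 30.8 kb between Hr4 and usp, and 2 lay in the 277 kb between br and Hr4.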

How the data were processed

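The deposited files are 4 thresholded and 4 ranked peak lists on dm6, for replicate 1, replicate 2 and both replicates (conservative and optimal). Per the file headers and labels, the lists came from an IDR pipeline. The sources used here do not give the aligner or the peak caller. The authors' signal value (column 7) has no stated scaling. The authors' scaled IDR score stops at 1000, and the ranked lists hold the authors' −log10 of the IDR. Here a signal was compared only within its list or between the conservative and optimal lists.

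Summits were placed in Ensembl release 115 gene models extended by 5 kb, and classed as promoter (within 500 bp of a start), UTR, exon, intron or intergenic. Peaks of 2 lists were matched by at least 1 bp of overlap. Motifs were searched within 100 bp of the summit. Scripts used Python 3.11.15 with pandas 2.3.3 and numpy 2.4.6, and were checked on simulated data. No test was run: the design has 1 group, and the 10 members and all gene lists were chosen with earlier results of these data known. The genes named were the members, genes of the other lists with a conservative summit, genes holding or nearest to a member summit, and the 3 closest to the strongest Hr4 site by rank. Smr, Hr38, Eip63E, DopEcR, and genes named only as nearest to a candidate or to a peak of a gene outside the members (Mur2B, for example) fall outside this rule and were named after their values were seen. The control experiment that the labels mention was not analysed here. The alternatives were other lists, thresholds, windows, gene models, promoter distances and motif windows. Sequences of chromosome arm 2R are not printed.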

Additional observations from a re-analysis of the deposited data

How the results depend on the processing

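The number of members with a summit (4) and of their summits (6), the number in both replicates (4), in promoters (0) and with the CTCF core (4) stayed within 1.5 times their value under every alternative run. The count with the core was 5 with a motif window of 250 bp and 4 in every other run. The count in both replicates always used the peaks of both, so leaving out 1 replicate cannot test it. With 1 replicate left out in turn, summits per 100 kb of the members' windows were 0.756 to 0.907 and the median signal 298 to 457. The optimal list gave 1.21 summits per 100 kb and a median signal of 413. Peaks at or above the list's median signal gave 0.756 and 874. Gene bodies alone gave 1.07 summits per 100 kb and windows of 10 kb either side gave 0.788. Median signals are not compared between the replicate lists or between a replicate list and a pooled list, because the scaling is not stated. The conservative and optimal lists gave the member peaks they share the same signal. The optimal list added the weaker Hr4 summits of 68.1 and 60.6, which lower its median. In each of these cases the peaks counted or the window length changed by construction. No paired analysis was possible because there is 1 group. The depth is unknown, so a gene without a listed peak is not shown to be unbound.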

Other observations

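Some further values belong to no comparison above. In replicate 2, Smr, a corepressor gene of EcR, had a thresholded intronic summit with a signal of 46.7, and Hr38, a nuclear receptor gene, had 1 of 41.4 that was 597 bp upstream of its start. In the optimal list, Eip63E, which encodes a cyclin-dependent kinase, had summits of 114 and 25.2 in overlapping peaks of an intron. It also had a thresholded summit of 59.2 in replicate 2. DopEcR, which encodes a membrane receptor for dopamine and ecdysteroids, had 1 optimal summit of 59.3 nearest to the start of slow. None of these 4 genes had a summit in the conservative list.

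In the conservative list, 10 kb or more without a candidate on 1 side was found at 8.21% of the other thresholded summits with the CTCF core, at 10.5% of those without it and at 2.31% of all candidates.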
